A study of Mus musculus with 6 samples.

Results

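A macrophage engulfs a fungal cell by pushing its plasma membrane outwards over a growing network of actin filaments, and 39 genes of this machinery were examined here. They were chosen by name from the 54532 genes of the table. The 39 genes encode 2 cytoplasmic actins, 8 subunits of the Arp2/3 complex, 3 nucleation promoting factors, 4 formins and Ena/VASP proteins, and 6 proteins that bind actin monomers or turn filaments over. They also encode 2 severing and capping proteins, 2 bundling proteins, 3 adhesion proteins, 4 proteins that link filaments to the membrane, and 5 small GTPases. All 39 were measured and all 39 passed the filter of a mean of at least 1 FPKM (fragments scaled to library size and to the length of the gene model), which left 8882 genes for testing.

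Polyadenylated RNA was compared between wild type (WT) macrophages and macrophages from mice that lack the secreted protein progranulin (PGRN KO; gene symbol Grn), with 3 libraries of each genotype. The strain is given as C57BL/6J for both genotypes and the age of the mice is not given. Cells of both genotypes were plated at 2000000 per well, kept overnight and exposed for 6 hours to Candida albicans, 1 fungal cell for each macrophage, so that the libraries called controls in the labels were challenged as well and no unchallenged library was analysed here. The labels give the peritoneal cavity as the source of the cells, whereas the study's methods describe bone marrow-derived macrophages. The legend of the study's sequencing figure gives a ratio of fungus to cells different from that in the labels. Neither point is settled, and the labels were followed. The PGRN KO mice and the WT mice came from different suppliers, so that genotype and source of the mice cannot be told apart. The labels do not say whether replicates came from separate animals, and p-values measure the spread between these libraries.

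Actin monomers are stored by thymosin and profilin and are added to filaments at sites chosen by small GTPases at the membrane. Cdc42 and Rac switch on WASP and WAVE proteins, which activate the Arp2/3 complex to grow branched networks, while formins grow unbranched filaments. Cofilin, coronins and gelsolin take filaments apart, bundling proteins stiffen them, and talin, kindlin and vinculin couple them to integrins. In macrophages this cycle forms the phagocytic cup and is then reversed so that the phagosome can move inwards.

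The libraries held 15996786 to 17551619 counted fragments, and the least abundant of the 39 genes, Evl, had 248 fragments per library on average. Grn was at 323, 337 and 325 FPKM in the WT libraries, and PGRN KO replicates 4, 5 and 6 were at 0.0166, 0 and 0.0167 FPKM, where 1, 0 and 1 fragments were counted. All 8 macrophage markers were detected in every library. Their summed level was 11618 to 12561 FPKM in WT libraries and 10445 to 14377 FPKM in PGRN KO libraries, and 1 passed the test upwards and 1 downwards. Summed levels of most other marker lists differed between genotypes. The 6 markers of large peritoneal macrophages summed to 18.4 to 19.6 FPKM in WT libraries and 38.8 to 45.8 FPKM in PGRN KO libraries, the 5 B cell markers to 1.5 to 2.5 and 6.62 to 8.92 FPKM, the 5 mast cell markers to 2.23 to 3.19 and 9.31 to 13.9 FPKM, and the 8 fibroblast and mesothelial markers to 1.1 to 1.18 and 2.04 to 3.68 FPKM. The 5 T and NK cell markers summed to 1.16 to 1.23 and 1.60 to 2.25 FPKM. Not every member followed the higher sum of its list. Timd4, of the large peritoneal macrophage list, was lower in PGRN KO (0.149 FPKM in WT against 0.0258 FPKM, without overlap). Alox15 of that list, Kit (mast cell), Ncr1 (T and NK cell), and Msln, Upk3b, Krt19 and Lum (fibroblast and mesothelial) had lower PGRN KO means with overlap. None of these passed the filter. The 5 dendritic cell markers, of which Cd209a was at 0, summed to 27.3 to 34.6 FPKM in WT libraries and 15.8 to 19.3 FPKM in PGRN KO libraries, and the 6 neutrophil markers, of which Ly6g and Elane were at 0, to 48.3 to 53.0 and 21.3 to 26.2 FPKM. Nearly all of the neutrophil sum was S100a8. This gene was at 48.8, 52.8 and 48.3 FPKM in the WT libraries and 21.2, 23.1 and 25.6 FPKM in those of PGRN KO. S100a9 (0.0432 against 0.182 FPKM, WT mean first) and Retnlg (0 against 0.0975 FPKM) had higher PGRN KO means with overlap. Mpo was counted only in WT replicate 2. The 4 eosinophil markers stayed at or below 0.304 FPKM, with Epx and Prg2 at 0. Among the markers that passed the filter, 3 of 4 for large peritoneal macrophages, 2 of 2 for B cells and 2 of 2 for mast cells were higher in PGRN KO, and the only marker of dendritic cells (Ccr7) and of neutrophils (S100a8) to pass the filter was lower. The part of these cells in the differences described here was not tested. In bulk RNA, fewer cells of a type and less RNA per cell cannot be told apart.

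PGRN KO replicate 6 stood apart in the actin genes. Over the 39 genes the Pearson correlation of log2(FPKM + 1) was 0.999 between PGRN KO replicates 4 and 5 and 0.998 to 0.999 between WT libraries, whereas replicate 6 gave 0.986 and 0.984 with the other PGRN KO libraries. With WT replicates 1, 2 and 3, PGRN KO replicate 6 gave 0.988, 0.987 and 0.990. Over all tested genes it gave 0.971 and 0.972 with PGRN KO replicates 4 and 5, and 0.946 to 0.950 with WT libraries. These are correlations across genes, which are not independent replicates. PGRN KO replicate 6 was the highest of the 6 libraries in 19 of the 39 genes and the lowest in 8, against 34.3% and 31.4% of all tested genes. In 24 genes PGRN KO replicates 4 and 5 both lay on the same side of all WT libraries, against 64.6% of all tested genes. In 14 of these 24 genes replicate 6 lay on the other side of the WT mean, against 19.8% of such genes over the whole table. The deviation of replicate 6 from the mean of all libraries ran with the length of the gene model. The Spearman correlation was -0.69 over the 39 genes. In the WT libraries this correlation was 0.092 to 0.27, and in PGRN KO replicates 4 and 5 it was 0.44 and 0.46. Over all tested genes it was -0.47 in replicate 6 against 0.15 to 0.24 in the other libraries. In replicate 6 the 22 actin genes of at most 3000 bases had a median deviation of 0.26 on the log2 scale. The 12 genes of more than 5000 bases had a median of -0.20. In PGRN KO replicates 4 and 5 these medians were -0.083 and -0.127 for the shorter genes and 0.069 and 0.036 for the longer genes. The part of replicate 6 in the results was therefore measured by repeating each comparison without it and after a correction for gene length. The fit without replicate 6 was not corrected for length.

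**Figure D1:**
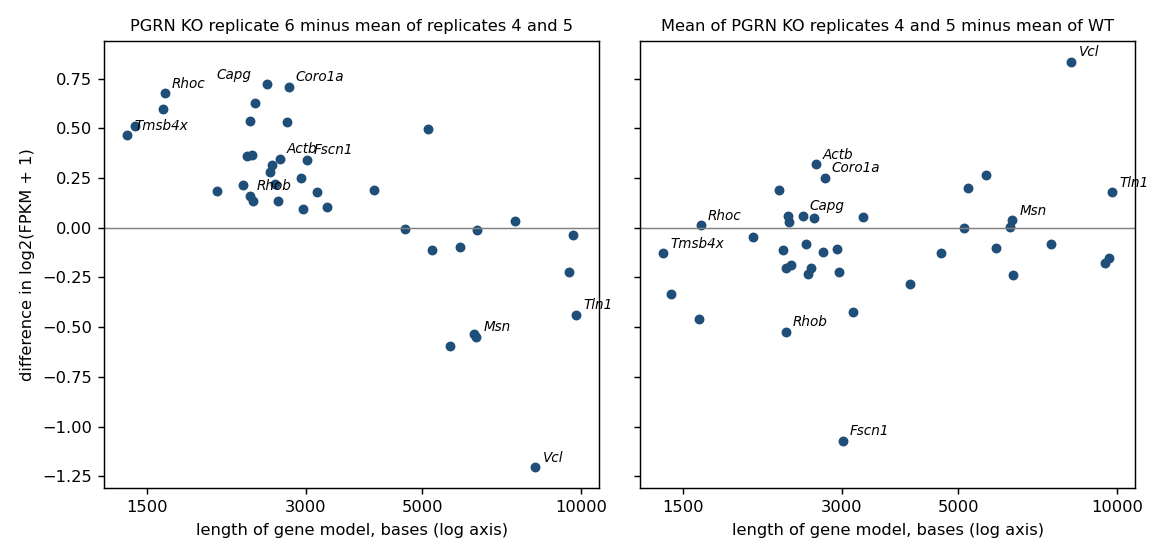
Differences in log2(FPKM + 1) for the 39 actin genes against the length of the gene model on a log axis, on the left for PGRN KO replicate 6 minus the mean of PGRN KO replicates 4 and 5, and on the right for the mean of replicates 4 and 5 minus the WT mean. Short genes such as Rhoc, Coro1a and Capg lie above 0 on the left and long genes such as Vcl, Msn and Tln1 lie below it. On the right the points lie on both sides of 0 at short and long lengths, with Fscn1 lowest and Vcl highest. The deviation from the mean of all libraries had a Spearman correlation with length of 0.44 in PGRN KO replicate 4 and 0.46 in replicate 5.

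To determine which parts of the machinery differed between genotypes, each gene was tested within a fit over all 8882 genes. Fscn1, Rhob and Gsn were lower in PGRN KO macrophages and no actin gene was higher at an adjusted p below 0.05 (limma). These 3 genes were 7.69% of the 39, against 24.2% of all tested genes (10.4% higher and 13.8% lower). At an unadjusted p below 0.05 there were 7 actin genes, against 39.1% of all tested genes. The median log2 fold change over the 39 genes was 0.01 and the median size of change, sign ignored, was 0.16. Over all tested genes these were -0.03 and 0.25, with the same median SE of 0.12. The median of the 39 genes moved to -0.10 without PGRN KO replicate 6, while that of all tested genes was -0.04, and to -0.06 after the correction for gene length. Groups did not overlap in 10 of the 39 genes, 4 higher and 6 lower in PGRN KO, against 48.8% of all tested genes.

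Without PGRN KO replicate 6 the count rose to 16 genes, 7 higher and 9 lower, or 41.0% of the 39 genes against 41.3% of all tested genes (16.2% higher and 25.1% lower). In that fit Vcl, Actb, Fmnl2, Coro1a, Actr2, Arpc5 and Tln1 were higher in PGRN KO, and Fscn1, Rhob, Gsn, Rhog, Diaph1, Fermt3, Cdc42, Cfl1 and Pfn1 were lower. Of these 16 genes, 13 were not called with all libraries. After the correction for gene length, 2 actin genes (Actb and Arpc5) were higher and 5 (Fscn1, Rhob, Gsn, Rhog and Cdc42) lower, against 14.9% higher and 16.8% lower of all tested genes and 31.7% in all. On the TPM scale, on which every library has the same sum, 3 (Actb, Arpc5 and Coro1a) were higher and 1 (Fscn1) lower, against 10.4% higher, 6.85% lower and 17.2% in all. This scale thus moved the balance of calls over all genes from 921 higher and 1230 lower to 922 higher and 608 lower. Fscn1 was the only one of the 39 genes called under each of the 14 alternatives.

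**Figure D2:**
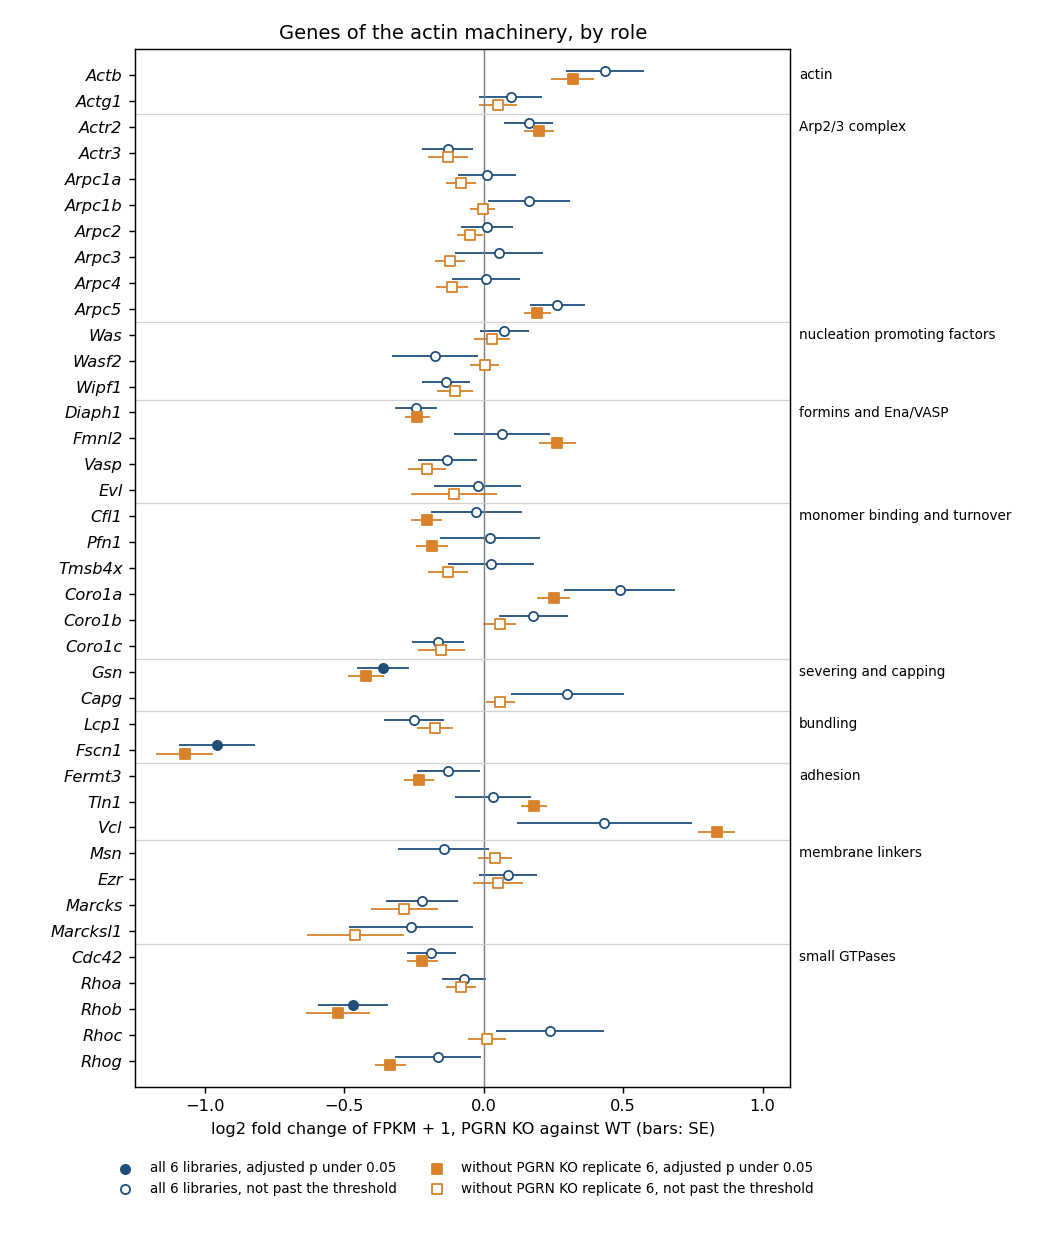
Log2 fold change of FPKM + 1 in PGRN KO against WT for the 39 actin genes, grouped by role, with bars of 1 SE. Blue circles use all 6 libraries, 3 of each genotype, and orange squares leave out PGRN KO replicate 6; filled symbols passed an adjusted p of 0.05 in limma, which Fscn1, Rhob and Gsn did in both fits.

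Fscn1 (ENSMUSG00000029581, chromosome 5, 142960343 to 142973185, GRCm38) encodes fascin, which packs filaments into the stiff bundles of filopodia. The WT libraries were at 12.05, 13.6 and 11.9 FPKM, the PGRN KO libraries at 6.06, 4.82 and 7.13 FPKM. Every PGRN KO library lay below every WT library. The mean fell from 12.5 ± 0.923 to 6.00 ± 1.15 FPKM (SD, n = 3 each), a ratio of 0.480, with a log2 fold change of -0.96 ± 0.14 (SE) and a limma adjusted p of 0.00509. Over the 14 alternatives the log2 fold change was -1.07 to -0.83 and the adjusted p 0.000134 to 0.0313. Among the 5 dendritic cell markers, Ccr7, the chemokine receptor of migrating dendritic cells, made up most of the summed level and was also lower, at 28.9, 32.4 and 25.5 FPKM in the WT libraries and 17.1, 14.4 and 18.2 FPKM in those of PGRN KO. Flt3 and Xcr1 were lower in all PGRN KO libraries (0.320 ± 0.0467 against 0.120 ± 0.0260 FPKM and 1.16 ± 0.183 against 0.388 ± 0.0633 FPKM, WT first), Zbtb46 was at 0.550 ± 0.0288 and 0.698 ± 0.110 FPKM with overlap, and Cd209a was at 0, and none of these passed the filter on low values. Mature dendritic cells express fascin, and the part of such cells in the Fscn1 result was not tested. The gene lies 53589 bases from Actb on the same chromosome.

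Lcp1, which encodes L-plastin, the bundling protein of white blood cells, was at 293, 312 and 276 FPKM in WT replicates 1 to 3 against 258, 261 and 223 FPKM in PGRN KO replicates 4 to 6. The groups did not overlap, but the difference did not pass (log2 fold change -0.25 ± 0.11, adjusted p 0.133). After the correction for gene length the log2 fold change of Lcp1 was -0.10 (adjusted p 0.348), and with sample quality weights it was -0.18 (adjusted p 0.0359). The Fscn1/Lcp1 ratio was 0.04115, 0.0434 and 0.0431 in WT and 0.0235, 0.0185 and 0.0320 in PGRN KO. The log2 ratio was lower in PGRN KO by 0.82, with no overlap between groups.

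Rhob (ENSMUSG00000054364, chromosome 12, 8497661 to 8500009, GRCm38), a small GTPase found on endosomes and induced early by many stimuli, was at 101, 88.9 and 118 (WT) and 69.6, 71.6 and 79.0 FPKM (PGRN KO). The WT libraries were spread more widely than the PGRN KO libraries, and the groups did not overlap. The log2 fold change was -0.47 ± 0.12 with an adjusted p of 0.0358. It passed in 6 of the 14 alternatives (adjusted p 0.00266 to 0.124).

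Gsn (ENSMUSG00000026879, chromosome 2, 35256380 to 35307892, GRCm38) encodes gelsolin, which cuts filaments and caps their fast-growing ends when calcium rises. It was at 10.4, 10.4 and 11.3 FPKM in the WT libraries and 7.52, 7.96 and 8.91 FPKM in those of PGRN KO, with no overlap. The log2 fold change was -0.36 ± 0.09 with an adjusted p of 0.0330, and it passed in 7 of the 14 alternatives (adjusted p 0.00111 to 0.123). Both Rhob and Gsn lost the call when any 1 library other than PGRN KO replicate 6 was left out. Without WT replicate 1, 2 or 3 or PGRN KO replicate 4 or 5 the log2 fold change of Gsn was -0.38 to -0.31 and that of Rhob -0.57 to -0.36.

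Capg encodes a relative of gelsolin that caps filaments without cutting them and is abundant in macrophages. It was at 445, 470.4 and 458 FPKM in WT replicates 1 to 3 against 486, 468 and 787 FPKM in PGRN KO replicates 4 to 6. Only PGRN KO replicate 6 lay far from the others, and the difference did not pass (adjusted p 0.310). The Capg/Gsn ratio was 42.6, 45.2 and 40.4 in WT and 64.6, 58.8 and 88.3 in PGRN KO. The log2 ratio was higher in PGRN KO by 0.70, and by 0.53 without replicate 6.

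**Figure D3:**
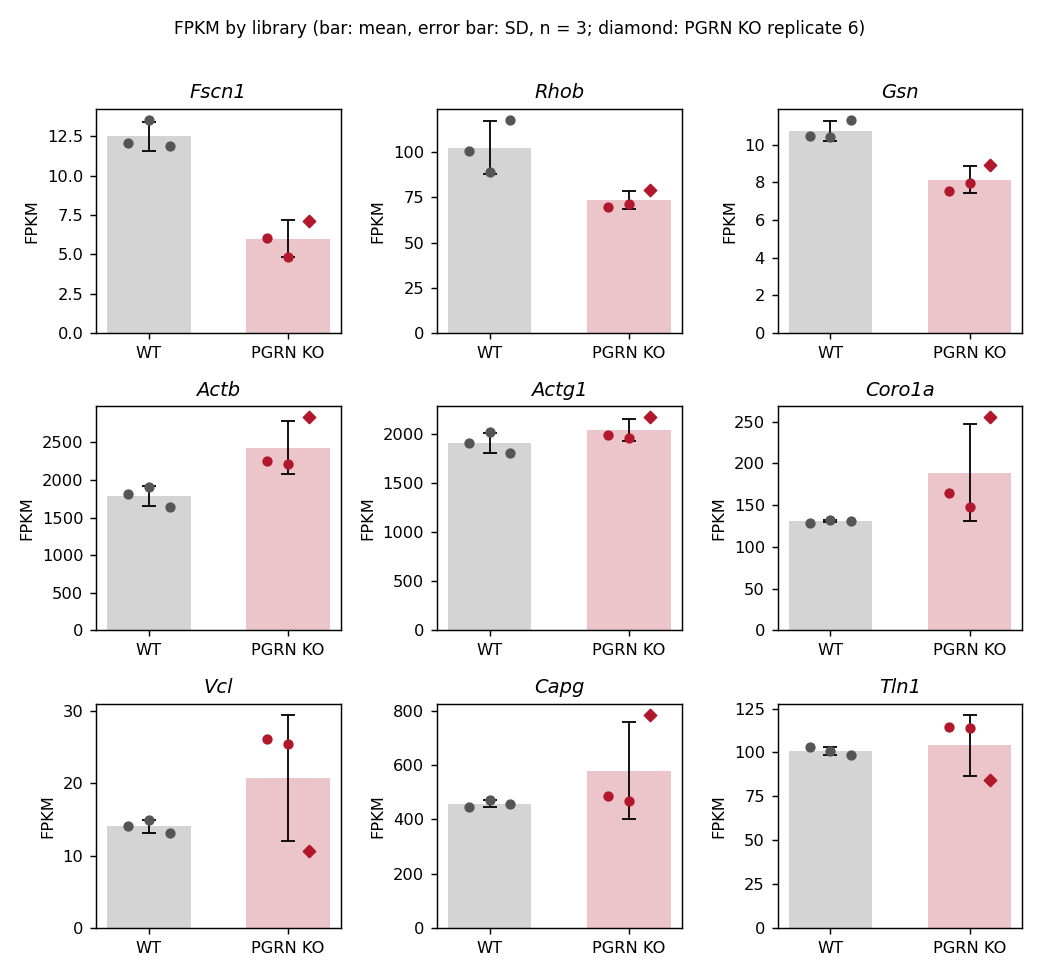
FPKM of 9 actin genes in each library, with bars for the mean and error bars for the SD of 3 libraries of each genotype; the diamond marks PGRN KO replicate 6. Fscn1, Rhob and Gsn lie lower in all 3 PGRN KO libraries, Actb and Coro1a lie higher in all 3, and Vcl, Capg and Tln1 show PGRN KO replicate 6 away from replicates 4 and 5.

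The stretches upstream of 4 genes are shown, and no link between a motif and a difference was tested. Fscn1 and Rhob were called lower. Actg1, which sets the scale for Actb, and Vcl, which differed most between PGRN KO libraries, were not called with all libraries. Gsn, also called lower, is not among the 4 stretches. Each is the 250 bases before the RefSeq start on GRCm38.p6, written 5′ to 3′ on the strand of the gene, with capitals for the motifs searched on both strands. They lie at chr5:142960105-142960354 (plus strand, Fscn1), chr12:8500010-8500259 (minus strand, Rhob), chr11:120348496-120348745 (minus strand, Actg1) and chr14:20929148-20929397 (plus strand, Vcl).
Fscn1: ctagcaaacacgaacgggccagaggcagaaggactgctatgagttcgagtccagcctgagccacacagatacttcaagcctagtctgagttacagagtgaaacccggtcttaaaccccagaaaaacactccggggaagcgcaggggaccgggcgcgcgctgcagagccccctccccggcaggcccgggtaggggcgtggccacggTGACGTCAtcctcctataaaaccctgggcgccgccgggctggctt
Rhob: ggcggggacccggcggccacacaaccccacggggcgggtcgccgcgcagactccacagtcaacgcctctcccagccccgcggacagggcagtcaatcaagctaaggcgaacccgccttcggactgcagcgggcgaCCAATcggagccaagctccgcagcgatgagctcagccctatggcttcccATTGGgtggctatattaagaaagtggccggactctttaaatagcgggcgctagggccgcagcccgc
Actg1: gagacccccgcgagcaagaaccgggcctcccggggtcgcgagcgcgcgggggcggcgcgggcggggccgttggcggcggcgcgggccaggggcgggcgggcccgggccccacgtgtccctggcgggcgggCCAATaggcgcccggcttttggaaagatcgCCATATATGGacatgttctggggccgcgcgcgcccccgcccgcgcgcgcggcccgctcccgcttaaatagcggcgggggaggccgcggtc
Vcl: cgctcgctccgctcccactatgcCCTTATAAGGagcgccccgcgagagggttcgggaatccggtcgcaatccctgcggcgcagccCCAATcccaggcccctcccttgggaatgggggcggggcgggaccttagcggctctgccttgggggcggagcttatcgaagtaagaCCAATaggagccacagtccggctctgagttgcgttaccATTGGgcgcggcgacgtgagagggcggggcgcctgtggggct
The motifs were the CArG box, which serum response factor binds at many cytoskeletal genes, CCAAT, TGACGTCA (the cyclic AMP response element) and TGANTCA (the AP-1 site). Windows from 250 bases before to 50 bases after the start were found for 35 of the 39 genes, 43 windows in all. Marcks, Actb, Diaph1 and Coro1b had none.

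The CArG box was present in 3 of the 43 windows of actin genes, in 3 of the 35 genes, against 1.63% of 32851 windows of the same length. It lay at bases -90 to -81 from the start in Actg1, at -227 to -218 in Vcl and at -250 to -241 in Arpc4. TGACGTCA was present in 2 of the 43 windows, against 1.79% of all windows. These were Fscn1, at -45 to -38, and Cdc42, at 36 to 43, which is past the start. TGANTCA was present in 1 of the 43, that of Ezr, against 7.81% of all windows. CCAAT was present in 10 actin genes (Actg1, Actr2, Arpc5, Cfl1, Gsn, Marcksl1, Rhob, Vcl, Wasf2 and Wipf1), against 37.4% of all windows, and in 11 of the 43 windows of actin genes. A match describes letters in the window, and binding was not measured.

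The actins were the most abundant of the 39 transcripts. Actb, which encodes beta-actin, was at 1819, 1902 and 1646 (WT) and 2249, 2208 and 2836 FPKM (PGRN KO). All 3 PGRN KO libraries lay above all WT libraries. The ratio of means was 1.36 and the log2 fold change 0.44 ± 0.14, which did not pass with all libraries (adjusted p 0.0640). It passed in 6 of the 14 alternatives, among them the TPM scale (0.00271), the correction for gene length (0.0163), voom on fragments (0.0442) and the fit without PGRN KO replicate 6 (0.0204), and its log2 fold change lay between 0.32 and 0.50 over all 14.

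Actg1 encodes gamma-actin, the other cytoplasmic actin. It was at 1906, 2013 and 1802 FPKM in the WT libraries and 1989, 1957 and 2169 FPKM in those of PGRN KO, and the groups overlapped (log2 fold change 0.10 ± 0.11, adjusted p 0.555). The Actg1/Actb ratio was 1.05, 1.06 and 1.09 in WT and 0.884, 0.886 and 0.765 in PGRN KO. Gamma-actin transcripts thus exceeded beta-actin transcripts per length in each WT library and were fewer in each PGRN KO library. The log2 ratio differed by -0.34, by -0.27 without PGRN KO replicate 6 and by -0.34 after the correction for gene length. The 2 actins together made up 0.965% ± 0.00879 of the summed FPKM of WT libraries and 1.21% ± 0.0201 of that of PGRN KO libraries (SD over 3 libraries). The 39 genes made up 2.29% ± 0.0481 and 2.59% ± 0.0305. Their own sums overlapped, at 8380 to 9183 FPKM in WT libraries and 8760 to 10995 FPKM in PGRN KO libraries. The sums over all genes were 358073 to 409007 FPKM in WT libraries and 352792, 338094 and 419007 FPKM in PGRN KO replicates 4, 5 and 6.

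Reads of the actins can be shared with copies of these genes. Of the 31-base stretches of Actg1 transcripts in GENCODE M21, 40.2% also occurred in another gene, above all in the pseudogenes Gm12715 and Gm8399, and for Actb the share was 23.6%. Gm12715 held 1.25% as many fragments as Actg1. No source used here says how reads with several matches were counted, and the ratio between the actins is uncertain to that extent.

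Branched networks are nucleated by the Arp2/3 complex, whose 8 genes summed to 881 ± 15.4 FPKM (WT) and 929.5 ± 87.7 FPKM (PGRN KO; SD, n = 3 each). None of the 8 passed, and 1 (Arpc5) had an unadjusted p below 0.05. The sum was 864 to 894 FPKM in WT libraries, while PGRN KO replicates 4 and 5 had 888 and 871 FPKM and replicate 6 had 1030.3 FPKM. Arpc5, a peripheral subunit, was at 151 ± 4.20 FPKM (WT) and 182 ± 16.2 FPKM (PGRN KO), without overlap (adjusted p 0.0941). Actr2, an actin-related subunit that starts the new branch, was at 91.2 ± 3.49 and 102 ± 4.95 FPKM, also without overlap (adjusted p 0.212). Actr3, its partner, was at 159.7 ± 11.8 and 146 ± 1.86 FPKM (adjusted p 0.339). The subunits Arpc2, Arpc3 and Arpc4 had log2 fold changes of 0.01, 0.06 and 0.01, which turned to -0.05, -0.12 and -0.11 without PGRN KO replicate 6.

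Arpc1a and Arpc1b encode alternative forms of 1 subunit, of which Arpc1b is the form of blood cells. Arpc1a was at 15.7, 14.7 and 14.9 FPKM in WT replicates 1 to 3 against 14.3, 14.1 and 17.5 FPKM in PGRN KO replicates 4 to 6. Arpc1b was at 74.0, 75.9 and 76.7 (WT) and 75.98, 74.7 and 107 FPKM (PGRN KO). The Arpc1b/Arpc1a ratio was 4.72, 5.17 and 5.15 in WT and 5.31, 5.31 and 6.10 in PGRN KO. The groups did not overlap, and the difference in the log2 ratio was 0.15 with replicate 6, 0.08 without it and 0.24 after the correction for gene length, against an SD of 0.075 among the WT libraries. Arpc1b shares 30.5% of its 31-base stretches with other genes, most of them with the overlapping gene Pdap1, and Actr3 34.2%, nearly all with the pseudogene Gm8822.

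The nucleation promoting factors were low by comparison. Was, the WASP protein of blood cells, was at 8.91, 8.58 and 9.33 (WT) and 9.48, 8.81 and 10.1 FPKM (PGRN KO). Wasf2, the WAVE protein that acts below Rac, was at 23.4, 23.6 and 23.3 FPKM in the WT libraries and 24.3, 22.7 and 15.9 FPKM in those of PGRN KO, where only replicate 6 lay apart. Wipf1, which binds and stabilizes WASP, was at 10.5 ± 0.504 and 9.48 ± 0.515 FPKM. None passed, with adjusted p between 0.281 and 0.568.

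Unbranched filaments are grown by formins and Ena/VASP proteins. Diaph1, a formin, was at 36.8, 36.2 and 36.8 FPKM in the WT libraries and 31.02, 30.7 and 30.6 FPKM in those of PGRN KO. These were the closest replicates among the 10 genes whose groups did not overlap, and the log2 fold change of -0.24 ± 0.08 had an adjusted p of 0.0569. It passed in 3 of the 14 alternatives, without PGRN KO replicate 6 (0.00895), with sample quality weights (0.00380) and with a mean of at least 5 FPKM (0.0478). Fmnl2, a formin of the leading edge, was at 10.4, 10.6 and 10.9 (WT) and 13.7, 12.3 and 8.23 FPKM (PGRN KO), so that PGRN KO libraries lay on both sides of WT. Vasp and Evl shield growing filament ends from capping, and neither passed. Vasp was at 111, 124 and 112 (WT) and 104, 96.9 and 117 FPKM (PGRN KO), and Evl at 4.13, 5.27 and 5.47 (WT) and 5.32, 3.79 and 5.55 FPKM (PGRN KO).

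The genes of monomer binding and turnover included some of the most abundant transcripts. Tmsb4x, whose product thymosin beta-4 holds monomers in reserve, was at 605, 631 and 547 FPKM in the WT libraries and 539, 546 and 749 FPKM in those of PGRN KO. Cfl1, which encodes cofilin, the main severing factor of old filaments, was at 448, 471 and 483 FPKM in WT replicates 1 to 3 against 415, 396 and 587 FPKM in PGRN KO replicates 4 to 6. Pfn1, which encodes profilin, the carrier of monomers to growing ends, was at 248 ± 10.3 and 258 ± 69.1 FPKM. All 3 genes were lower than every WT library in PGRN KO replicates 4 and 5 and higher than every WT library in replicate 6. None passed with all libraries (log2 fold changes of -0.03 to 0.03), whereas Cfl1 (-0.20, adjusted p 0.0316) and Pfn1 (-0.19, 0.0429) were lower without replicate 6.

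Coronins guard or dismantle branched networks, and Coro1a, the coronin of white blood cells, is found on phagosomes. Coro1a (chromosome 7, 126699773 to 126707787, GRCm38) was at 129, 132 and 131 (WT) and 164, 148 and 255 FPKM (PGRN KO). All PGRN KO libraries lay above the narrow range of WT, with replicate 6 far above the others. The log2 fold change was 0.49 ± 0.20 with an adjusted p of 0.117, and without replicate 6 it was 0.25 with an adjusted p of 0.0192. B cells also express Coro1a, the B cell markers were higher in PGRN KO as given above, and their part in this difference was not tested.

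Coro1b, the widely expressed form, was at 46.0, 49.2 and 50.8 FPKM in the WT libraries and 49.998, 51.3 and 65.4 FPKM in those of PGRN KO (adjusted p 0.320). Coro1c was at 7.56, 7.24 and 8.19 FPKM in WT replicates 1 to 3 against 6.29, 7.33 and 6.60 FPKM in PGRN KO replicates 4 to 6 (adjusted p 0.237). The groups overlapped for both. The Coro1b/Coro1a ratio was 0.356, 0.374 and 0.387 in WT and 0.304, 0.348 and 0.256 in PGRN KO, and the Coro1c/Coro1a ratio was 0.0585, 0.0550 and 0.0623 in WT and 0.0383, 0.0497 and 0.0258 in PGRN KO. Both ratios were lower in all PGRN KO libraries than in all WT libraries. The differences in the log2 ratio were -0.31 and -0.68, and -0.19 and -0.43 without replicate 6.

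Among the adhesion genes, Vcl (ENSMUSG00000021823, chromosome 14, 20929398 to 21033676, GRCm38) differed most between libraries of 1 genotype and is described in full because of these values. It encodes vinculin, which reinforces the link between talin and filaments under load. It was at 14.1, 14.9 and 13.1 (WT) and 26.1, 25.4 and 10.6 FPKM (PGRN KO). Replicates 4 and 5 were thus well above WT, and replicate 6 was the lowest of all libraries. With all libraries the log2 fold change was 0.43 ± 0.31 (SE, adjusted p 0.346), without replicate 6 it was 0.84 (adjusted p 0.000719), and after the correction for gene length it was 0.56 (adjusted p 0.126). Vcl overlaps Ap3m1 on the opposite strand, with which it shares 25.3% of its 31-base stretches, and Ap3m1 held 26.9% as many fragments. Ap3m1 was at 4.78 ± 0.293 FPKM (WT) and 6.18 ± 0.805 FPKM (PGRN KO), and reads of these genes cannot be told apart if the strand was not used in counting, on which no source used here gives an answer.

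Tln1, which encodes talin, the activator of integrins, was at 103, 101 and 98.3 FPKM in the WT libraries and 114, 114 and 84.1 FPKM in those of PGRN KO, the same arrangement as Vcl with a smaller spread. Its log2 fold change was 0.03 with all libraries and 0.18 (adjusted p 0.0253) without replicate 6. Fermt3, which encodes the kindlin of blood cells, was at 66.4 ± 0.676 FPKM (WT) and 61.1 ± 8.46 FPKM (PGRN KO; adjusted p 0.442). Its log2 fold change was -0.13, and -0.23 without replicate 6 (adjusted p 0.0192).

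The genes that link filaments to the membrane did not pass in any direction. Msn, which encodes moesin, was at 293, 312 and 280.3 FPKM in the WT libraries and 307, 299 and 207 FPKM in those of PGRN KO. Ezr, which encodes its less abundant relative ezrin, was at 46.0, 45.2 and 41.7 (WT) and 50.2, 41.97 and 49.5 FPKM (PGRN KO). Marcks and Marcksl1 encode proteins that bind the membrane and leave it when phosphorylated. Marcks was at 52.2, 59.1 and 46.6 (WT) and 47.04, 39.03 and 49.01 FPKM (PGRN KO). Marcksl1 was at 416, 513 and 359 FPKM in the WT libraries and 351, 271 and 468 FPKM in those of PGRN KO, and the groups overlapped for all 4 genes. The SE of the Marcksl1 difference was 0.22 on the log2 scale, among the widest of the 39 genes.

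The other small GTPases did not pass with all libraries. Rhoa, the main activator of contraction, was at 53.7, 53.5 and 50.3 FPKM in WT replicates 1 to 3 against 50.3, 48.8 and 50.7 FPKM in PGRN KO replicates 4 to 6 (log2 fold change -0.07 ± 0.08, adjusted p 0.549). The Rhob/Rhoa ratio was therefore 1.87, 1.66 and 2.35 in WT and 1.38, 1.47 and 1.56 in PGRN KO, a difference of -0.40 in the log2 ratio. Without WT replicate 3 the difference was -0.27, and after the correction for gene length it was -0.57. Cdc42, which directs filopodia and the phagocytic cup, was at 161, 170.4 and 156 (WT) and 139, 139 and 149 FPKM (PGRN KO), without overlap (adjusted p 0.157). Rhog, an activator of the Rac pathway, was at 186, 199 and 194 FPKM in the WT libraries and 158, 148 and 218 FPKM in those of PGRN KO. Rhoc, linked to cell motility, was at 175, 188 and 200.3 (WT) and 194, 185 and 303 FPKM (PGRN KO). In both of these only PGRN KO replicate 6 lay above all WT libraries. Without PGRN KO replicate 6, Cdc42 (-0.22, adjusted p 0.0232) and Rhog (-0.34, adjusted p 0.00561) were lower.

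To compare relatives within a library, where a shift common to both genes cancels, 14 ratios of paired genes were examined. A shift that depends on gene length does not cancel between genes of unlike length. After the correction for gene length the difference in the log2 ratio went from -0.68 to -0.45 for Coro1c/Coro1a and from 0.31 to 0.10 for Rhoc/Rhoa. In other pairs its size grew, from -0.40 to -0.57 for Rhob/Rhoa and from -0.82 to -0.89 for Fscn1/Lcp1. In 7 of the 14 ratios the groups did not overlap: Actg1/Actb, Arpc1b/Arpc1a, Coro1b/Coro1a, Coro1c/Coro1a, Rhob/Rhoa, Capg/Gsn and Fscn1/Lcp1. Each of these had an exact permutation p of 0.1 (two-sided), the smallest that 3 against 3 libraries allow, and an adjusted p of 0.2 over the 14 ratios. Among all tested genes taken singly, 48.8% did not overlap, and the share over other pairs of genes was not computed. All 7 ratios but Arpc1b/Arpc1a hold a gene whose own groups did not overlap. The other 7 ratios overlapped: Rhoc/Rhoa, Rhog/Cdc42, Ezr/Msn, Evl/Vasp, Marcksl1/Marcks, Fmnl2/Diaph1 and Wasf2/Was. In the last of these PGRN KO replicates 4 and 5, at 2.56 and 2.58, lay within the WT range of 2.498 to 2.75 and replicate 6 was at 1.57.

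**Figure D4:**
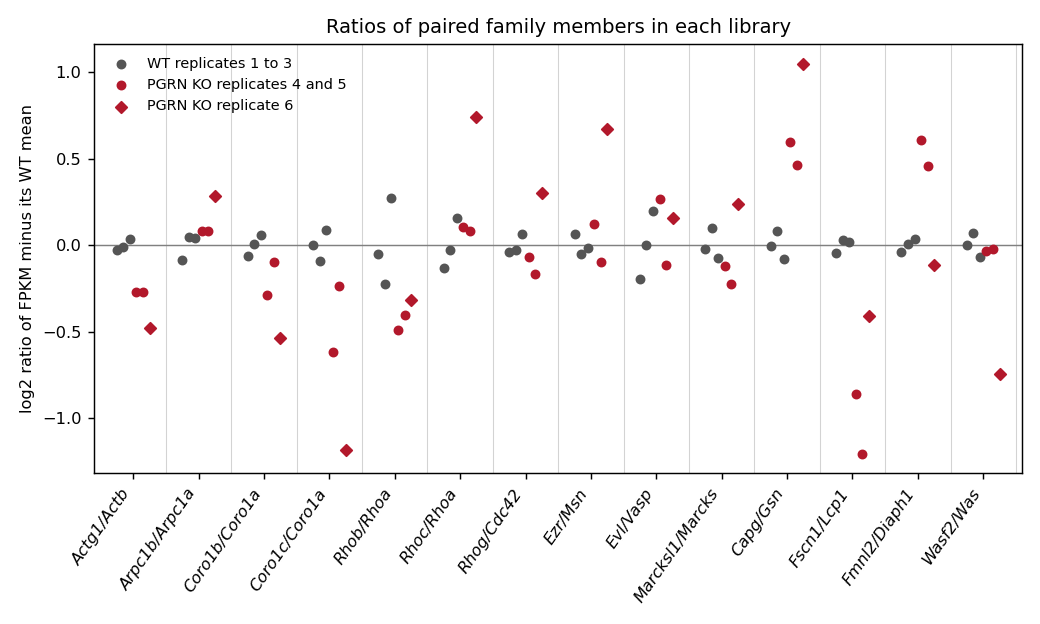
Log2 ratio of FPKM of 14 pairs of actin genes in each library, minus the mean of the WT libraries for that pair. Grey circles are WT replicates 1 to 3, red circles PGRN KO replicates 4 and 5, and the red diamond PGRN KO replicate 6; Actg1/Actb, the coronin pairs, Rhob/Rhoa and Fscn1/Lcp1 lie below WT in all PGRN KO libraries, and Capg/Gsn lies above.

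Genes that act beside these 39 were counted from 3 further lists of 116 genes, of which 100 passed the filter. In these, 12 genes rose and 16 fell in PGRN KO, 28.0% of those tested, against 24.2% of all tested genes, and the median log2 fold change was -0.08. Without PGRN KO replicate 6, 22 rose and 31 fell, 53.0% of those tested, against 41.3% of all tested genes. Among further small GTPases and their regulators, 3 of 30 rose and 5 fell. Vav1, the exchange factor that activates Rac in blood cells, fell from 55.7 ± 2.10 to 25.9 ± 1.81 FPKM (log2 fold change -1.08, adjusted p 0.00119), and Vav3, its relative, from 4.41 ± 0.282 to 2.71 ± 0.743 FPKM (-0.56, 0.0405). Pak2, a kinase bound by Rac and Cdc42 (-0.55), and Gna13, a G protein subunit (-0.51), were also lower. Rnd3, a small GTPase (0.73), Rhoh, a GTPase of blood cells (0.65), and Limk2, the kinase that switches cofilin off (0.61), were higher.

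Among genes of nucleation and its activators, 2 of 26 rose and 3 fell. Washc2 (-0.69, adjusted p 0.00328) and Washc5 (-0.51, 0.0262), subunits of the WASH complex, which drives Arp2/3 on endosomes, were lower, whereas Washc3 (0.61, 0.0125), another subunit of this complex, was higher. Wasl, the widely expressed WASP protein, fell from 8.25 ± 0.694 to 5.59 ± 0.472 FPKM (-0.49, 0.0160). Arpc5l, the alternative form of Arpc5, rose from 3.60 ± 0.306 to 5.39 ± 0.598 FPKM (0.47, 0.0204).

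Among filament binding, adhesion and motor genes, 7 of 44 rose and 8 fell. Aif1, which encodes Iba1, an actin bundling protein of macrophages, fell from 2.26 ± 0.172 to 0.271 ± 0.158 FPKM (-1.37, adjusted p 0.00140). Myo10, the motor of filopodia, fell from 11.9 ± 0.515 to 5.89 ± 1.30 FPKM (-0.92, 0.00702), Actn4, a crosslinker, from 57.6 ± 2.04 to 31.9 ± 1.23 FPKM (-0.83, 0.00162), and Pxn, the adhesion scaffold paxillin, from 26.1 ± 0.707 to 17.04 ± 0.706 FPKM (-0.59, 0.00450). Coro2a, a coronin, rose from 5.01 ± 0.419 to 9.69 ± 0.801 FPKM (0.83, 0.00301), Dstn, which encodes destrin, a relative of cofilin, from 193 ± 5.02 to 298 ± 13.3 FPKM (0.62, 0.00509), Zyx, the adhesion protein zyxin, from 53.0 ± 1.36 to 79.5 ± 7.63 FPKM (0.57, 0.00912), and Rdx, which encodes radixin, a relative of ezrin and moesin, from 9.51 ± 0.167 to 14.0 ± 1.63 FPKM (0.51, 0.0142). In these lists the values after ± are SDs of 3 libraries. In all 28 genes called the groups did not overlap, which a call on the same libraries makes likely and which adds no support.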

How the data were processed

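The authors deposited FPKM per gene for each library. The study's methods name HISAT and HTSeq for alignment and counting, while the submitters' processing notes name HISAT2 2.0.5, featureCounts 1.5.0-p3, DESeq2 1.20.0 and the build mm10 (GRCm38). For strand and for reads with several matches, the handling is not given in the sources. FPKM times gene length gave whole fragments for 100% of values (tolerance 0.001 of a fragment), 15996786 to 17551619 per library. Reads carried no molecular identifiers.

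Genotypes were compared on log2(FPKM + 1), which understates changes of low genes, with limma 3.58.1 in R 4.3.3 (variance trend, no covariates, two-sided) over the 8882 genes with a mean of at least 1 FPKM, with Benjamini-Hochberg adjustment at 0.05. Ratios of paired genes were compared by exact permutation. The correction for gene length was a loess fit per library (span 0.5). All 39 genes and the gene and marker lists were chosen with earlier results of these data known. Genes past the threshold, the 5 most abundant and both genes of a named pair were to be given by library, the others by counts, ranges or group means, and from each neighbouring list at most 4 genes in each direction. Library values of Vcl, Tln1, Ccr7 and S100a8 and the means of other markers were added after their values were seen. Alternatives were a pseudocount of 0.1, no filter, a mean of at least 5 FPKM, the TPM scale, quantile normalization, sample quality weights, voom on fragments, the length correction, and leaving out each library. Sequences and starts came from RefSeq (GRCm38.p6), and shared 31-base stretches from GENCODE M21, in which all 39 genes had the same coordinates as in the table.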

Additional observations from a re-analysis of the deposited data

How the results depend on the processing

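The precision is limited by 3 libraries per genotype, of which PGRN KO replicate 6 stood apart and had a sample quality weight of 0.0899. No paired analysis was possible because the labels pair no WT library with a PGRN KO library. Among fold changes of the 39 genes recomputed under each alternative, 454 kept their direction and their side of the threshold, 36 passed it newly in the same direction, 15 lost it and 40 changed direction, of which 1 (Pfn1 without PGRN KO replicate 6) passed the threshold. The 15 that were lost belonged to Gsn and Rhob. Among recomputed ratios, 93 kept their direction and 5 changed it. Counts of calls moved with the setting, and the cause was not tested. Some settings also held fewer libraries or another set of tested genes.

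The 39 actin genes held 3 calls (0 higher, 3 lower). They held 1 (1 lower) without a filter, 4 (3 higher, 1 lower) on the TPM scale, 5 (3 higher) after quantile normalization, 15 (6 higher, 9 lower) with sample quality weights, 4 (1 higher) with voom on fragments, and 7 (2 higher, 5 lower) after the correction for gene length. The shares of the 39 genes in these settings were 2.56%, 10.3%, 12.8%, 38.5%, 10.3% and 17.9%, and those of all tested genes 5.96%, 17.2%, 24.6%, 47.6%, 25.5% (2267 genes) and 31.7%. With each library left out the count was 1 to 16 (2.56% to 41.0%, against 8.03% to 41.3% of all tested genes), with 0 to 7 higher and 1 to 9 lower, and it was 1 without any library other than PGRN KO replicate 6. The neighbouring lists held 28 calls. They held 16 (7 higher, 9 lower) without a filter, 18 (7 lower) on the TPM scale, 20 (6 higher, 14 lower) with a mean of at least 5 FPKM, and 53 (22 higher, 31 lower) with sample quality weights. In these settings that was 13.9%, 18.0%, 26.3% and 53.0% of the neighbours tested, against 5.96%, 17.2%, 30.5% and 47.6% of all tested genes. With each library left out the neighbouring lists held 10 to 53 of 100, with 3 to 22 higher and 7 to 31 lower, against 8.03% to 41.3% of all tested genes.

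None of the genes that changed direction was past the threshold with all libraries. With sample quality weights the log2 fold change was -0.096 for Arpc1a, -0.047 for Arpc2, -0.126 for Arpc3, -0.119 for Arpc4, -0.136 for Pfn1, -0.131 for Tmsb4x, 0.030 for Evl and 0.030 for Msn. After the correction for gene length it was -0.040 for Arpc1a, -0.063 for Arpc2, -0.056 for Arpc4, -0.037 for Pfn1, -0.066 for Tmsb4x and 0.040 for Rhoa, and the log2 ratio Rhog/Cdc42 was -0.037. On the TPM scale Evl was 0.021 and Cfl1 0.028, and quantile normalization gave 0.016 and 0.036. With each library left out the ranges were -0.082 to 0.064 for Arpc1a, -0.003 to 0.250 for Arpc1b, -0.048 to 0.051 for Arpc2, -0.121 to 0.156 for Arpc3, -0.113 to 0.101 for Arpc4, -0.287 to 0.003 for Wasf2, -0.072 to 0.264 for Fmnl2, -0.126 to 0.120 for Evl, -0.205 to 0.080 for Cfl1, -0.187 to 0.145 for Pfn1, -0.129 to 0.107 for Tmsb4x, -0.041 to 0.179 for Tln1 and -0.246 to 0.039 for Msn. The log2 ratio ranged from -0.116 to 0.119 for Rhog/Cdc42 and from -0.171 to 0.057 for Marcksl1/Marcks.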
